A study of Homo sapiens with 94 samples.

Results

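The cytosolic heat shock chaperones and the HSP90 co-chaperone FKBP4 were followed in NCI-H226 tumors grown in mice and exposed to K-975, an inhibitor of the TEAD transcription factors. The 10 genes, FKBP4, HSP90AA1, HSP90AB1, HSPA8, HSPH1, HSPA1A, HSPA1B, DNAJB1, HSPB1 and BAG3, were found by symbol among the 20239 gene identifiers of the expression table. They were selected on the measured level of FKBP4, which was lower after 200 mg/kg in the 3-6 h study, and on the family it belongs to. For that contrast the levels are therefore a description with no test, and the tests below use other tumors or other contrasts.

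NCI-H226 is a human malignant mesothelioma cell line. Its cells were placed under the skin of female CB17 SCID mice, a host that lacks T and B cells, so each value comes from 1 cell line in 1 kind of host. Tumor-bearing mice received K-975 once by mouth at 30, 100 or 200 mg/kg, the vehicle (ethanol, Solutol and glucose solution), or nothing, and tumors were taken in 3 separate studies, after 1 h, after 3-6 h or after 24 h. The vehicle and the 200 mg/kg dose were given at 20 mL/kg, the lower doses at 10 mL/kg. Each group held 5 tumors, except the 24 h vehicle group with 4. At 3-6 h the vehicle and each dose had 2 groups of 5 mice, numbered by cage group: 2 and 3 for the vehicle, 4 and 5 for 200 mg/kg, 6 and 7 for 100 mg/kg, 8 and 9 for 30 mg/kg. The labels do not tell which of the paired cage groups was taken at 3 h and which at 6 h. Each of these cage groups held a single treatment, and within a pair cage group and sampling time cannot be told apart. In every other group all mice shared a cage group, so cage group and treatment cannot be told apart there, nor can time and study.

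Heat shock proteins bind unfolded or partly folded proteins and help them to reach, keep or regain their fold. HSP90 acts late, on clients such as kinases and steroid receptors, with co-chaperones that set its cycle, and FKBP4 (FKBP52) is a prolyl isomerase that docks on HSP90 and accompanies steroid receptors. HSP70 proteins act earlier, helped by J-domain proteins that start their ATP cycle and by nucleotide exchange factors that end it. Under protein stress the transcription factor HSF1 binds heat shock elements, inverted repeats of the letters GAA, and raises many of these genes together.

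Of the 94 libraries, 91 held 11344 to 11665 genes at an FPKM (expression scaled for transcript length and library size) of at least 1. The other 3 held fewer than 10000 such genes: replicate 1 of 30 mg/kg at 24 h with 702, replicate 5 of 100 mg/kg at 24 h with 7196, and replicate 1 of 200 mg/kg at 1 h with 8531. These 3 were left out, and the results that change with them are given in the closing section. Of the mesothelial markers of the cell line, MSLN, CALB2, WT1, PDPN and the listed keratins were detected in all 91 libraries. UPK3B, from the same list, was low, at 0 in 3 libraries and at most 4.05 FPKM. Markers of other cell types were mixed: HBB was listed at 0 in all 91 libraries, HBA1 in 90, COL1A2 in 85, LYZ in 83 and PECAM1 in 79, whereas CD68, KDR, COL1A1 and COL3A1 were above 0 in every library, with median FPKM of 139, 63.9, 560 and 267. VWF and CDH5 were also never at 0 (medians 0.989 and 1.09), and PTPRC and HBA2 had medians of 0.168 and 0.909. The tumors were bulk tissue, so fewer cells of a kind and less RNA per cell cannot be told apart.

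The promoters of most of these genes carried the letters of a heat shock element. The genes were listed as HSF1-driven chaperones and HSP90 co-chaperones, so such matches partly reflect how the list was made. The 250 bases before each annotated start, from RefSeq on GRCh38.p14, were searched for GAANNTTC, which is its own reverse complement. Of the 10 genes, 9 had an entry, with 14 windows in all, and FKBP4 had none. GAANNTTC was present in 7 of the 14 windows and in 7 genes, at 10 places, against 5.78% of all 35116 windows. The sites are printed because they are what these genes share by sequence; each is 30 bases, 5′ to 3′ along the gene's strand, with the 8-base match in capitals.
HSP90AA1, chr14:102087109-102087138, minus strand: gggttcttccgGAAGGTTCgggaggcttct
HSP90AB1, chr6:44247772-44247801, plus strand: agcaggttctgGAAGATTCatgggctcctt
HSP90AB1, chr6:44247825-44247854, plus strand: agattgttctgGAAGCTTCtggattctggc
HSPA8, chr11:123062348-123062377, minus strand: ggggcgagcttGAAAGTTCcagaacgctgc
HSPA8, chr11:123062168-123062197, minus strand: ggccccttctgGAAGGTTCtaagatagggt
HSPA1A, chr6:31815426-31815455, plus strand: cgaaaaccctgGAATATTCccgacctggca
HSPA1B, chr6:31827622-31827651, plus strand: cgaaacccctgGAATATTCccgacctggca
DNAJB1, chr19:14518456-14518485, minus strand: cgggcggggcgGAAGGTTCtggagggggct
DNAJB1, chr19:14518426-14518455, minus strand: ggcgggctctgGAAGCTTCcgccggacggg
HSPB1, chr7:76302480-76302509, plus strand: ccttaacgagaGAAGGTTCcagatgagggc

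The matches end between 39 bases (DNAJB1) and 222 bases (HSPA8) before a start. The windows of HSPH1 and BAG3 held no match to these letters. GGAATG, the letters that TEAD factors bind, was searched on both strands and was in none of the 14 windows, against 11.9% of all windows. A match is a run of letters and not a measured binding site, and no match covers these windows only.

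Levels differed widely between the genes, and these FPKM are scaled per length, although the capture of transcripts by probes also enters a comparison between genes. HSPB1, a small heat shock protein that holds unfolded proteins, was the highest of the 10, with a median FPKM of 410 (range 291 to 581) over the 91 libraries. HSP90AB1 (chr6:44246165-44253888, ENSG00000096384.19), the constitutive cytosolic HSP90, had a median FPKM of 308 (251 to 366). HSPA8 (chr11:123057488-123062669, ENSG00000109971.13), the constitutive HSP70, followed with a median of 236 (174 to 336). The stress-inducible HSP90AA1 had a median of 99.7 (54.0 to 149). FKBP4 (chr12:2794952-2805423, ENSG00000004478.7) had a median of 50.4 (32.5 to 63.2). DNAJB1, the J-domain partner of inducible HSP70, and BAG3, an exchange factor that links HSP70 to selective autophagy, had medians of 40.3 (23.7 to 68.8) and 36.5 (25.9 to 53.3). HSPH1 (HSP110), an exchange factor for HSP70, was the lowest of the 8 well detected genes, with a median of 22.0 (12.7 to 32.9). The coefficient of variation over all 91 libraries ran from 7.15% for HSP90AB1 to 22.0% for DNAJB1, so the constitutive HSP90 was the steadiest of the 8.

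The inducible HSP70 pair was listed near 0. HSPA1A had an FPKM of 0 in 59 libraries and reached at most 0.314, and HSPA1B had 0 in 90 and reached 0.0849. The transcripts of the pair are 2483 and 2521 bases long and were identical at 95.3% of 2402 aligned bases, so counting could have split or dropped reads that fit both copies. The values of both genes are uncertain for this reason. Neither reached an FPKM of 1 in 4 libraries, the filter used, so 8 of the 10 genes were among the 13036 genes tested.

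**Figure D1:**
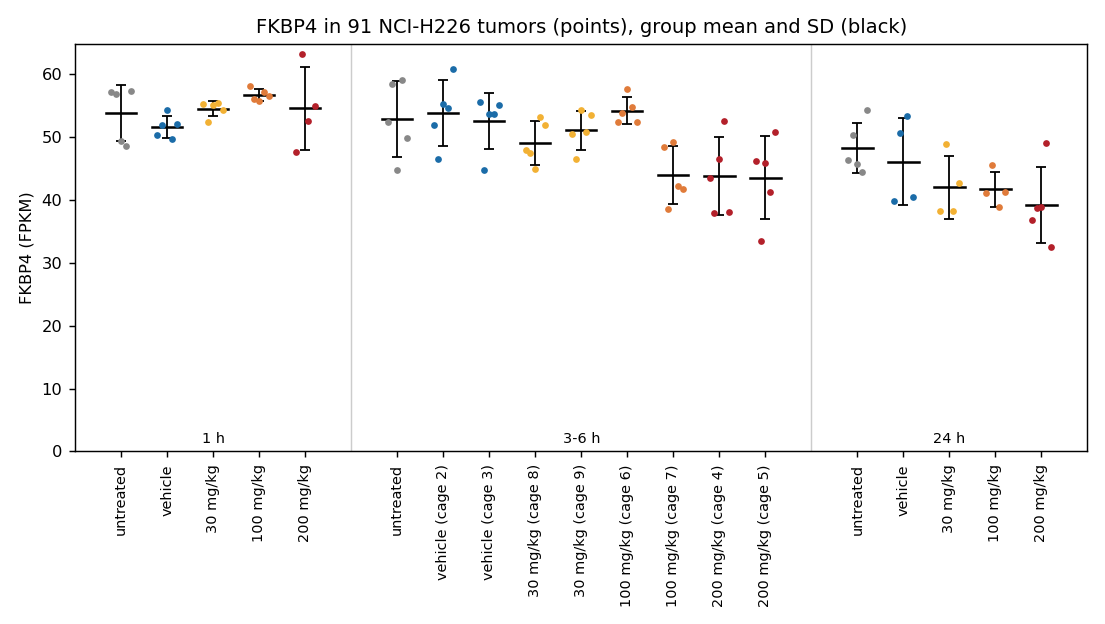
FPKM of FKBP4 in each of the 91 tumors (points) by treatment group and study, with the group mean and SD in black. The 200 mg/kg cage groups at 3-6 h had means of 43.7 and 43.5, the vehicle cage groups 53.8 and 52.5, and of the 100 mg/kg cage groups only cage group 7 (mean 44.0) lay as low as the 200 mg/kg tumors.

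FKBP4 was lower after 200 mg/kg at 3-6 h, which is what chose it. In vehicle tumors of cage group 2 its FPKM was 51.9, 46.6, 55.2, 54.7 and 60.8. In those of cage group 3 it was 55.5, 44.8, 53.6, 53.6 and 55.0. After 200 mg/kg it was 43.5, 38.0, 46.6, 52.6 and 38.1 in cage group 4. In cage group 5 it was 46.2, 33.5, 45.9, 41.3 and 50.8. The groups overlapped: 5 of the 10 treated tumors lay below every vehicle tumor, and the means were 43.6 ± 5.99 and 53.2 ± 4.61 FPKM (SD, n = 10 each), 17.9% apart. On the log2(FPKM + 1) scale, used for all differences below, this was -0.29. Untreated tumors of this study had 52.4, 58.3, 44.7, 59.0 and 49.8 FPKM, close to the vehicle tumors.

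The lower doses at 3-6 h shared those vehicle tumors, and their FKBP4 values are likewise a description. After 100 mg/kg FKBP4 was at 52.4, 53.8, 57.6, 54.7 and 52.4 FPKM in cage group 6, within the vehicle range. In cage group 7 it was at 48.3, 38.5, 49.1, 42.2 and 41.7. After 30 mg/kg the means were 49.0 ± 3.44 in cage group 8 and 51.1 ± 3.10 in cage group 9 (SD, n = 5 each). The log2 difference from vehicle was -0.12 for 100 mg/kg and -0.08 for 30 mg/kg.

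After 200 mg/kg at 3-6 h the other chaperones differed less from vehicle than FKBP4, a ranking favoured by the choice of FKBP4 on this contrast. Their log2 differences were -0.22 for HSPH1, -0.14 for HSPA8, -0.11 for HSP90AA1, -0.08 for HSP90AB1, -0.07 for BAG3, -0.01 for HSPB1 and 0.03 for DNAJB1. The groups overlapped for each of the 8 genes. The median of the 8 was -0.10, beside 0.01 over all 13036 genes, of which 0.069% passed an adjusted p of 0.05 in this contrast. HSPH1 FPKM averaged 20.5 ± 3.64 after 200 mg/kg and 23.9 ± 3.39 with vehicle (SD, n = 10 each). FKBP5, the FKBP4 relative that is a classical target of the glucocorticoid receptor, stood at 3.76 ± 0.516 FPKM in untreated tumors (SD, n = 5), 5.08 ± 1.93 with vehicle and 7.34 ± 3.00 after 200 mg/kg (SD, n = 10 each). The groups overlapped, at 3.37 to 8.59 FPKM with vehicle and 4.07 to 14.4 after 200 mg/kg. After 100 mg/kg FKBP5 was at 3.12 to 6.59 FPKM.

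Against untreated tumors the same 200 mg/kg tumors gave a wider gap for HSPA8 than for FKBP4. HSPA8 FPKM was 278, 304, 281, 306 and 263 in untreated tumors, and all 10 tumors of the dose lay below that range, at 196 to 260.3. The vehicle tumors also lay mostly below untreated ones for HSPA8, 8 of 10 of them, with a mean of 249.9 ± 35.9 (SD, n = 10). The log2 difference from untreated was -0.34 for HSPA8 after 200 mg/kg, -0.28 for FKBP4, and -0.21 for HSPA8 with vehicle alone. In these contrasts 0.176% and 0% of all genes passed the threshold.

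**Figure D2:**
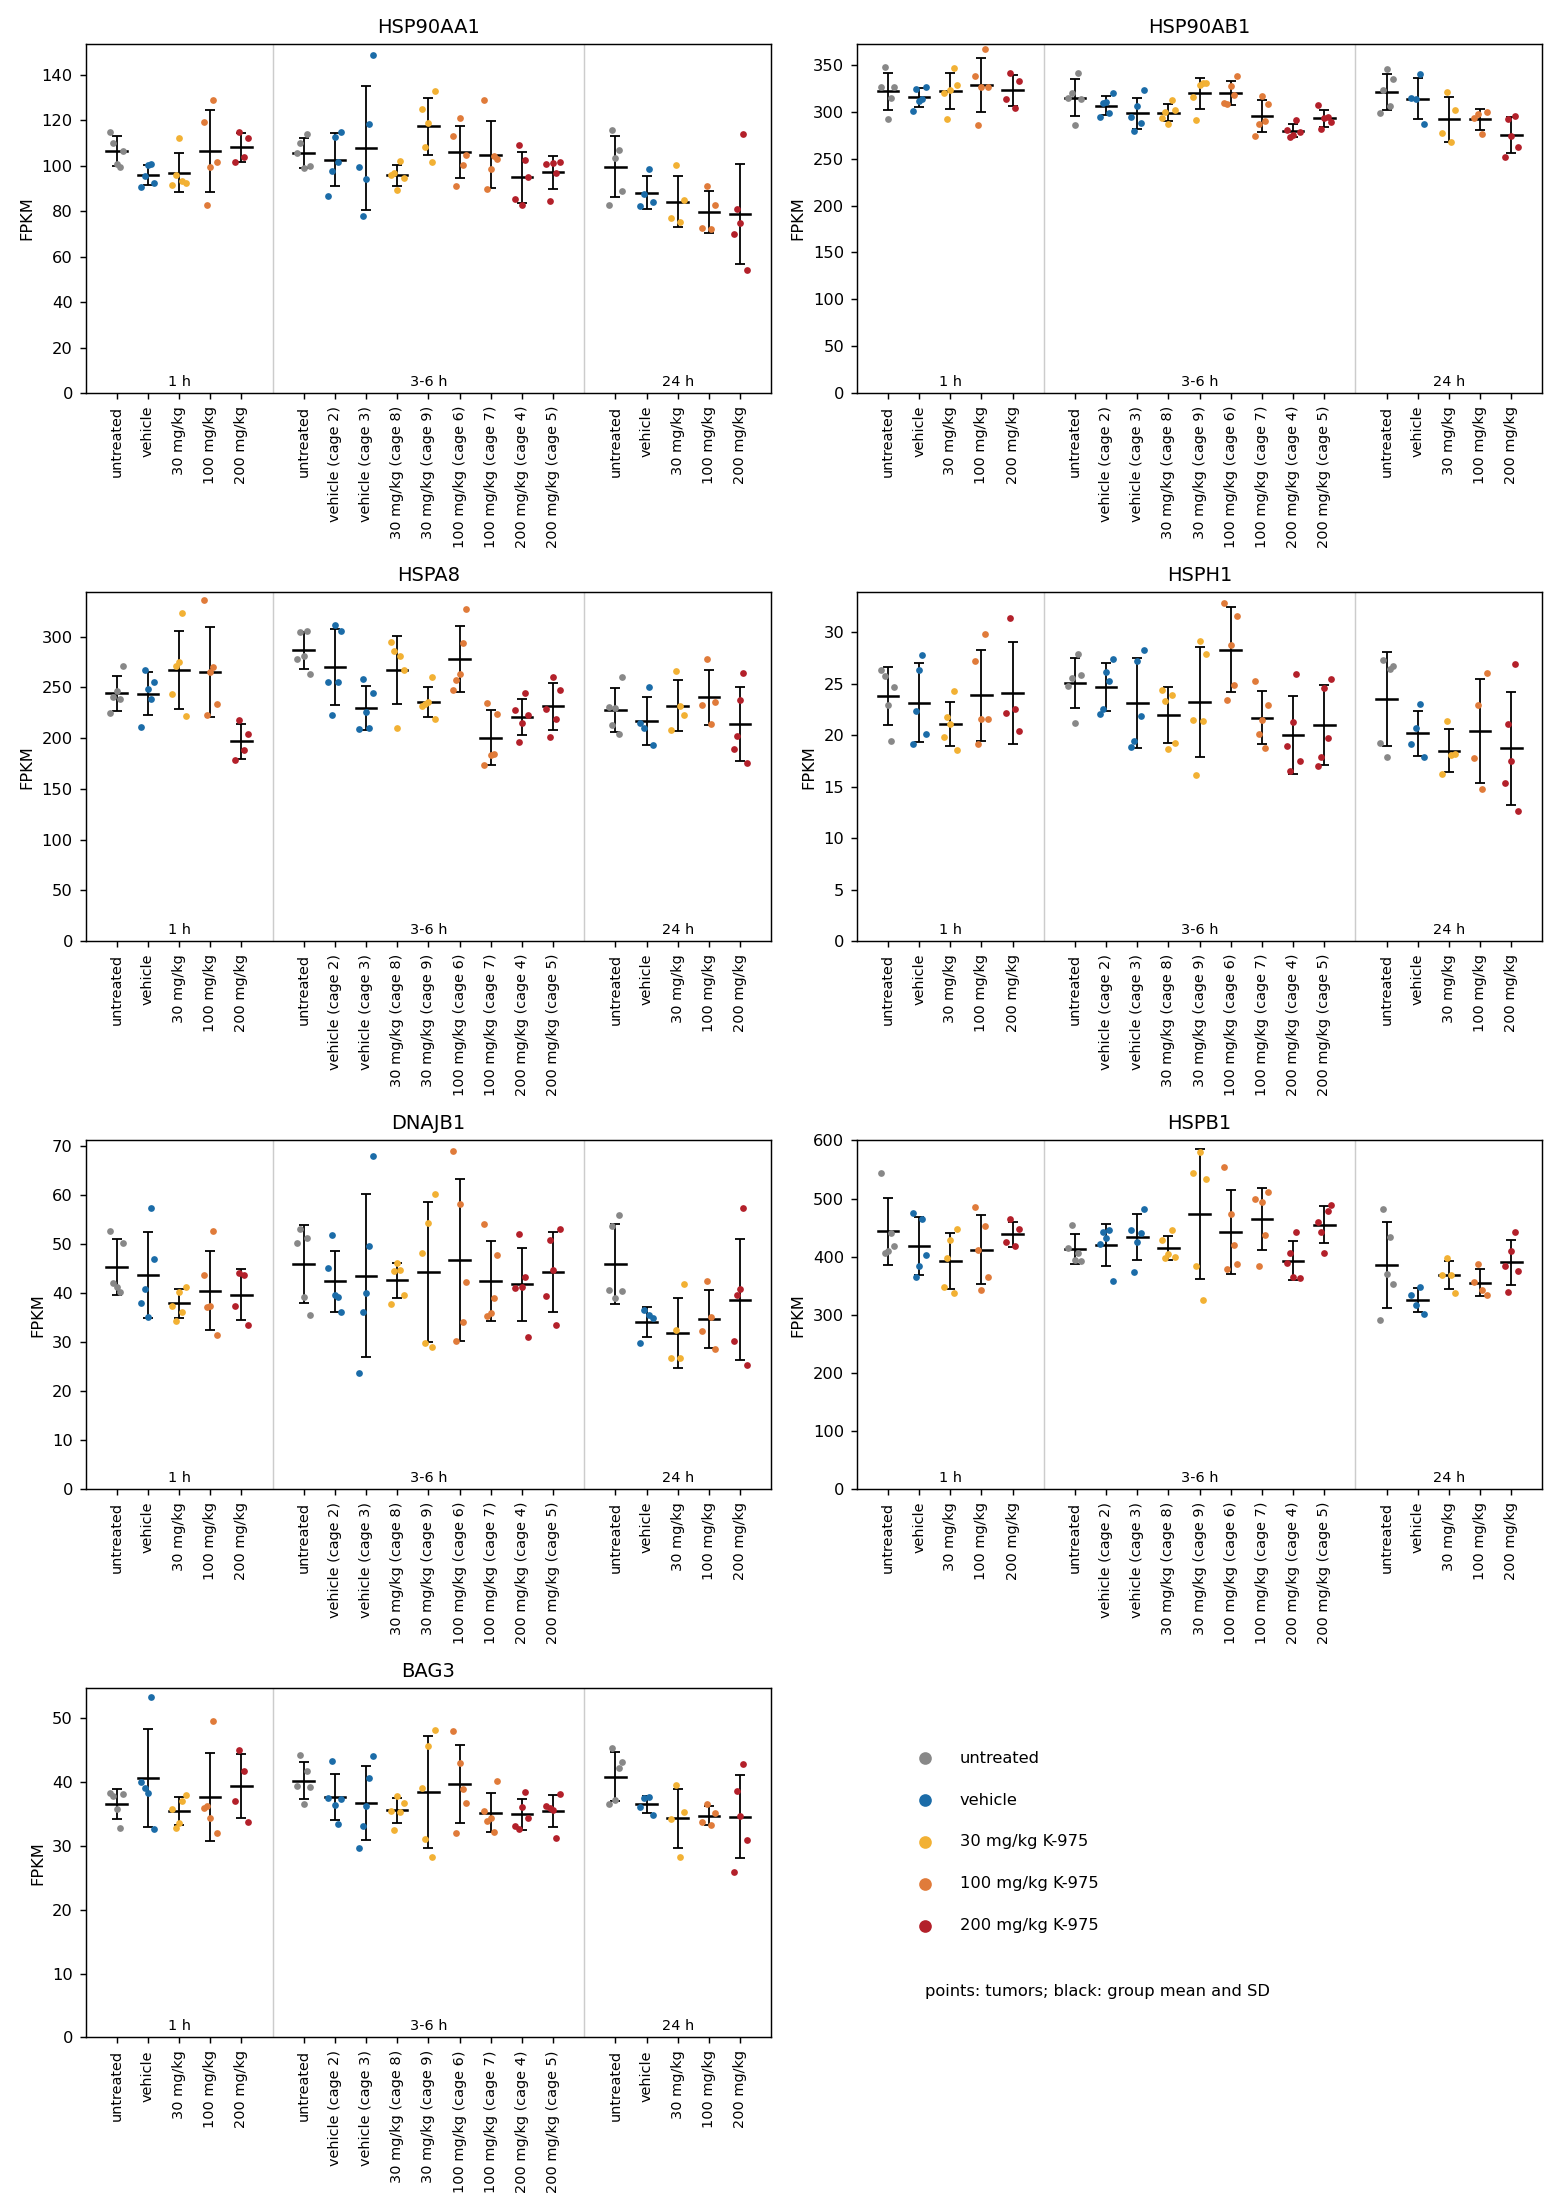
FPKM of the 7 other detected chaperones in each tumor (points) by treatment group and study, with the group mean and SD in black; every vertical axis starts at 0. HSP90AB1 at 24 h falls from 314 in vehicle tumors to 275 after 200 mg/kg, and HSPA8 differs between cage groups 6 and 7 of 100 mg/kg (means 278 and 200.2).

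At 24 h, in tumors outside the contrast that chose FKBP4, HSP90AB1 was lower after 200 mg/kg. The list of genes was still drawn up with earlier results of these data known. Its FPKM was 314, 314, 341 and 287 in vehicle tumors. After 200 mg/kg it was 251, 292, 274, 296 and 262. The groups overlapped, with 3 of 5 treated tumors below every vehicle tumor and means of 275 ± 19.2 (SD, n = 5) and 314 ± 21.8 (SD, n = 4). The log2 difference was -0.19 (SE 0.06, adjusted p = 0.0250, limma with Benjamini-Hochberg adjustment over 13036 genes). Before adjustment, 3 of the 8 genes had a p under 0.05, beside 21.9% of all genes. HSP90AB1 was the 1 gene of 8 that passed after adjustment, none passed upward, and 7.41% of all genes passed in this comparison. The call was lost without vehicle replicate 1, 2 or 3 or without treated replicate 1 or 5, and it held in 4 of 9 fits that each left out a tumor of these groups, with adjusted p between 0.00998 and 0.144.

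FKBP4 at 24 h did not pass the threshold. It was at 39.9, 50.6, 53.4 and 40.4 FPKM in vehicle tumors. After 200 mg/kg it was at 36.8, 38.7, 38.9, 49.0 and 32.5, with 4 of 5 tumors below every vehicle tumor. Of the vehicle tumors, 2 lay below the untreated range of 44.4 to 54.2 FPKM and 2 within it. The log2 difference was -0.23 (SE 0.10, adjusted p = 0.131, limma). Without treated replicate 4, the tumor at 49.0, it was -0.31 with an adjusted p of 0.0401. That was the 1 of 9 fits leaving out a tumor of these groups in which FKBP4 passed. Over the 9 fits the difference ran from -0.31 to -0.15 and the adjusted p from 0.0401 to 0.435 (limma).

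When the untreated tumors served as the control, 3 of the 8 genes passed at 200 mg/kg and 24 h, beside 8.31% of all genes. They were HSP90AB1 (-0.22, adjusted p = 0.00373, limma), FKBP4 (-0.30, adjusted p = 0.0247, limma) and HSP90AA1 (-0.36, adjusted p = 0.0357, limma). HSP90AA1 FPKM was 82.7, 116, 104, 107 and 88.9 in untreated tumors. After 200 mg/kg it was 70.0, 81.2, 74.8, 114 and 54.0, so 4 of 5 lay below the untreated tumors and replicate 4 among the highest. Against vehicle the HSP90AA1 difference was -0.20 (adjusted p = 0.350, limma). The untreated mice received no dosing volume at all, and both fits use the same treated tumors.

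The other chaperones at 24 h and 200 mg/kg gave differences from vehicle of both signs. HSPB1 was at 391 ± 38.7 FPKM (SD, n = 5) beside 325 ± 20.3 (SD, n = 4), with 4 of 5 tumors above every vehicle tumor and a log2 difference of 0.26 that did not pass (adjusted p = 0.157, limma). Untreated tumors had 386 ± 74.0 FPKM of HSPB1 (SD, n = 5). The log2 differences of HSPH1, BAG3, HSPA8 and DNAJB1 were -0.14, -0.09, -0.03 and 0.12. The median of the 8 genes was -0.12, beside 0.04 over all genes.

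At 100 and 30 mg/kg and 24 h, none of the 8 genes passed in limma, beside 1.12% and 0.0384% of all genes. None had an unadjusted p under 0.05, beside 14.1% and 10% of all genes. FKBP4 averaged 41.6 ± 2.75 FPKM after 100 mg/kg and 42.0 ± 5.03 after 30 mg/kg (SD, n = 4 each), compared with 46.0 ± 6.94 with vehicle (SD, n = 4). HSP90AB1 averaged 292 ± 10.9 and 292 ± 24.0 FPKM (SD, n = 4 each). These doses share the vehicle tumors of the 200 mg/kg comparison.

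**Figure D3:**
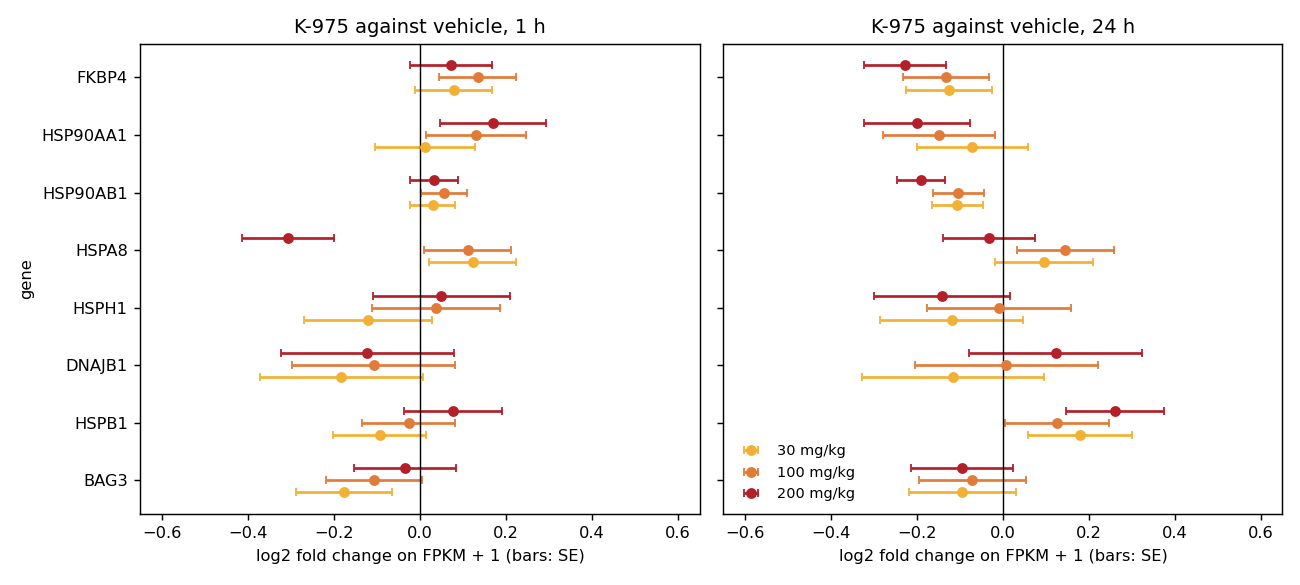
Difference of each dose from vehicle in log2(FPKM + 1) for the 8 detected genes at 1 h (left) and 24 h (right); points are the differences and bars the standard error. HSP90AB1 at 24 h and 200 mg/kg (-0.19) is the value shown that passed the threshold, and HSPA8 at 1 h and 200 mg/kg (-0.31) is the lowest point and did not pass.

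At 1 h no chaperone passed the threshold at any dose in limma. From the highest dose down, 0%, 0.00767% and 0% of all genes passed. The count with an unadjusted p under 0.05 was 1 of 8 after the highest dose and 0 after either lower dose, beside 3.34%, 4.97% and 4.38% of all genes from the highest dose down. The gene of that count was HSPA8, at 179, 218, 188 and 204 FPKM after 200 mg/kg. In vehicle tumors HSPA8 was at 211, 268, 248, 238.2 and 255, so 3 of 4 treated tumors lay below every vehicle tumor, and the difference was -0.31 (SE 0.11, adjusted p = 1, limma). HSP90AA1 lay above every vehicle tumor in all 4 tumors of 200 mg/kg, with means of 108 ± 6.32 and 96.0 ± 4.53 FPKM (SD, n = 4 and n = 5), at a difference of 0.17 (adjusted p = 1, limma). Untreated tumors of that study had 106 ± 6.49 FPKM of HSP90AA1 (SD, n = 5), and the 200 mg/kg tumors differed from these by 0.02.

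FKBP4 did not pass the threshold 1 h after any dose. It was at 50.2, 51.9, 54.2, 49.6 and 52.0 FPKM in vehicle tumors. After 100 mg/kg it was at 58.1, 56.0, 55.7, 57.1 and 56.5, above every vehicle tumor, with a difference of 0.13 (adjusted p = 0.953, limma). These values overlapped the untreated tumors, at 48.6 to 57.3 FPKM, and the difference from untreated was 0.08. With the 200 mg/kg dose FKBP4 was at 47.5, 63.2, 52.5 and 54.9, and after 30 mg/kg its mean was 54.5 ± 1.23 (SD, n = 5). The effect of 200 mg/kg at 24 h minus that at 1 h was -0.30 for FKBP4 (adjusted p = 0.312), -0.22 for HSP90AB1 (adjusted p = 0.164) and -0.37 for HSP90AA1 (adjusted p = 0.341, all limma). None of the 8 genes passed in that test of the difference, beside 0.583% of all genes, and 3 had an unadjusted p under 0.05, beside 13.2% of all genes.

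Within 100 mg/kg at 3-6 h, HSPA8 was lower in cage group 7 than in cage group 6. It was at 247, 257, 263, 294 and 327 FPKM in cage group 6. In cage group 7 it was at 174, 235, 184, 185 and 224, with no overlap. The log2 difference was -0.47 (SE 0.10, adjusted p = 0.0389, limma). Before adjustment, 4 of the 8 genes had a p under 0.05, beside 7.5% of all genes. After adjustment HSPA8 was the 1 of 8 genes that passed, beside 0.046% of all genes. The call held in 3 of 10 fits without a tumor, with adjusted p between 0.0143 and 0.207, and it was lost without replicate 2, 3, 4 or 5 of cage group 6 and without replicate 1, 3 or 4 of cage group 7. Depth inferred from rarely detected genes was also lower in cage group 7, at 0.459 to 0.843 of the median, beside 0.817 to 1.44 in cage group 6. The part of depth in this difference was not tested. Cage group and sampling time cannot be told apart in this pair. DNAJA1, a J-domain protein that works with HSPA8, was also lower in cage group 7 (-0.44, adjusted p = 0.0268, limma), at 40.6 ± 9.87 and 54.0 ± 2.76 FPKM (SD, n = 5 each).

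FKBP4 did not overlap between these cage groups either, but its difference of -0.30 did not pass (SE 0.09, adjusted p = 0.279, limma). HSPH1 differed by -0.36 (adjusted p = 0.548) and HSP90AB1 by -0.12 (adjusted p = 0.606, both limma), with 4 and 3 of 5 tumors of cage group 7 below cage group 6. Single cage groups were taken alone only after the data were seen, so the p-values of cage group 7 are not independent of that choice. Cage group 7 alone differed in HSPA8 from vehicle by -0.32 (adjusted p = 0.0431, limma) and from untreated tumors by -0.52 (adjusted p = 0.00154, limma), beside 1.33% and 0.951% of all genes. Cage group 6 alone differed in HSPA8 by 0.16 from vehicle (adjusted p = 0.997, limma) and by -0.05 from untreated tumors (adjusted p = 1, limma), and 0% of all genes passed in either. With both cage groups together, none of the 7 genes tested against vehicle at 100 mg/kg passed (0.43% of all genes did), and 0 had an unadjusted p under 0.05 (10.3% of all genes). Against untreated tumors none of 8 passed (0.169% of all genes did), and 1 had an unadjusted p under 0.05 (8.27% of all genes), HSPA8 (-0.29, adjusted p = 0.195, limma).

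In the remaining pairs of cage groups none of the 8 genes passed in limma, and there too cage group and sampling time cannot be told apart. Between vehicle cage groups 3 and 2, HSPA8 was again the gene with an unadjusted p under 0.05, at 230 ± 21.5 and 270.1 ± 37.6 FPKM (SD, n = 5 each), with an adjusted p of 0.414. In this pair 0.33% of all genes passed and 9.96% had an unadjusted p under 0.05. NR3C1, the gene of the glucocorticoid receptor, passed there, higher in cage group 3 (0.67, adjusted p = 0.0161, limma). Between cage groups 9 and 8 of 30 mg/kg it was HSP90AA1, at 117 ± 12.6 and 95.8 ± 4.60 FPKM (SD, n = 5 each), with an adjusted p of 0.648, while 0% of all genes passed and 6.36% had an unadjusted p under 0.05. Between cage groups 5 and 4 of 200 mg/kg it was no gene (0.0153% of all genes passed, 7.09% unadjusted), and FKBP4 differed by -0.01. At 30 mg/kg and 3-6 h none of 7 genes passed against vehicle (0.0153% of all genes did), and 0 had an unadjusted p under 0.05 (7.03% of all genes). Against untreated tumors none of 8 passed (0% of all genes did), and 1 had an unadjusted p under 0.05 (3.71% of all genes).

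Untreated tumors showed how far the chaperones moved without any dosing. HSPA8 was at 231, 213, 230, 204 and 260.5 FPKM in the untreated tumors of the 24 h study, all below the 263 to 306 of the 3-6 h study. The log2 difference was -0.33 (adjusted p = 0.0402, limma), and HSPA8 was again the 1 of 8 genes that passed, beside 4.36% of all genes. The call was lost in 9 of 10 fits that left out a tumor and held without untreated 24 h replicate 5, with the difference between -0.36 and -0.29 wherever it was lost. DNAJA1 (-0.34, adjusted p = 0.0145, limma) and HSPA2, a testis-rich HSP70 (-0.99, adjusted p = 0.00213, limma), were also lower, and NR3C1, whose receptor is an HSP90 client, was higher (0.52, adjusted p = 0.0240, limma). Of the marker lists, CD68 was higher (1.07) and CALB2, KRT18 and KDR were lower (-0.47, -0.28 and -1.04) in the same comparison. The summed mesothelial markers overlapped, at 2403 to 3764 FPKM in the 24 h study and 3207 to 4571 in the 3-6 h study. Other immune and endothelial markers had low median FPKM over the 91 libraries: PTPRC 0.168, ITGAM 2.59, VWF 0.989 and CDH5 1.09. CD68 and KDR alone therefore do not show which cells changed, and the part of these markers in the chaperone values was not tested. Against the 1 h study none of the 8 genes passed in untreated tumors of 3-6 h or of 24 h, beside 0.0997% and 0.00767% of all genes. An unadjusted p under 0.05 was found for 1 and 0 of the 8, beside 9.25% and 10% of all genes.

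The vehicle alone gave no call. At 24 h all 8 chaperones had a lower mean with vehicle than without dosing, with a median log2 difference of -0.16 beside 0.00 over all genes. DNAJB1 was at 29.7, 36.5, 35.5 and 34.9 FPKM with vehicle. In untreated tumors DNAJB1 was at 40.5, 53.5, 39.0, 55.9 and 40.3, with no overlap and a difference of -0.40 (adjusted p = 1, limma). None of 8 genes passed, and 0% of all genes did. An unadjusted p under 0.05 was found for 2, DNAJB1 and HSPB1, beside 4.2% of all genes. At 1 h none of 8 passed, beside 0% of all genes, and 0 had an unadjusted p under 0.05, beside 4.73% of all genes.

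Within groups, the levels of the chaperones varied together from tumor to tumor. With each group's mean removed, 24 of the 45 pairs of the 10 genes had a positive Pearson correlation past the threshold over 91 tumors and 0 had a negative one (two-sided permutation within groups, 100000 resamples, adjusted over 45 pairs). The 28 pairs of the 8 detected genes had a median r of 0.498 and 27 of them, 96.4%, were positive. Over all 23794651 pairs of genes with a mean FPKM of at least 10, the median r was 0.0078 and 52% were positive. All values of a tumor come from its own library, and r with the inferred relative depth of the library lay between -0.116 and 0.144 for the 8 genes.

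**Figure D4:**
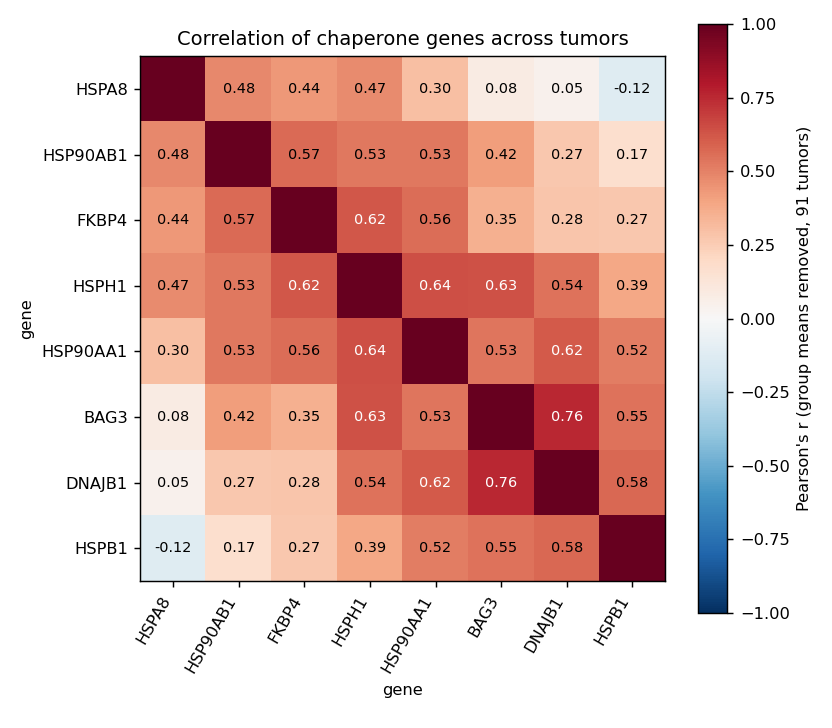
Pearson r between the 8 detected genes over 91 tumors, on log2(FPKM + 1) with each group's mean removed; the colour scale gives r. DNAJB1 and BAG3 have the highest r (0.757), and the row of HSPA8 is pale against DNAJB1, BAG3 and HSPB1 (0.046, 0.085 and -0.119).

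The highest r was that of DNAJB1 with BAG3, both partners of inducible HSP70, at 0.757 (Spearman rho 0.726, permutation p = 1e-05, the smallest these permutations can give, adjusted p = 4.5e-05). This r was 0.736 without the 2 tumors farthest from the median of DNAJB1. Within the studies it was 0.733 at 1 h (24 tumors), 0.822 at 3-6 h (45 tumors) and 0.688 at 24 h (22 tumors). HSPH1 went with HSP90AA1 (0.644) and with BAG3 (0.634), and DNAJB1 with HSP90AA1 (0.616) and HSPB1 (0.578).

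FKBP4 went most with HSPH1, at r = 0.624 (rho 0.590, permutation p = 1e-05, adjusted p = 4.5e-05), and r was 0.604 without the 2 tumors farthest from the median. Within studies this was 0.542 at 1 h, 0.594 at 3-6 h and 0.723 at 24 h. Its r with the HSP90 genes was 0.570 for HSP90AB1 and 0.556 for HSP90AA1. With DNAJB1 it was 0.279 (rho 0.313, permutation p = 0.0128, adjusted p = 0.0262), and this relation was weak within the 3-6 h study, at 0.144, beside 0.608 at 24 h.

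**Figure D5:**
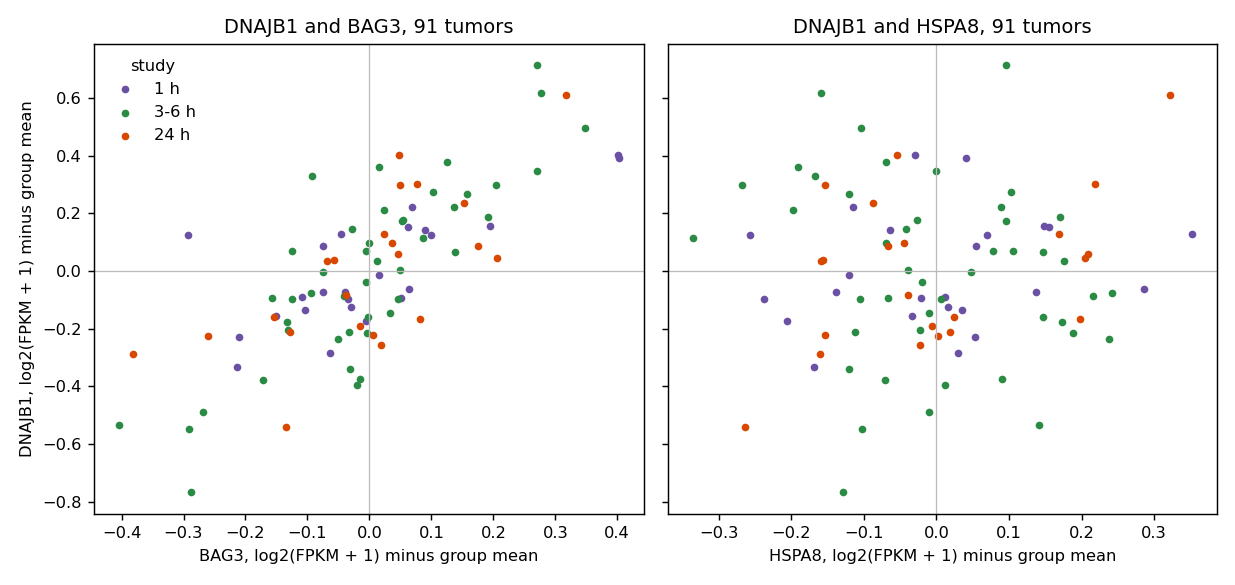
DNAJB1 against BAG3 (left) and against HSPA8 (right) in 91 tumors, each axis the log2(FPKM + 1) minus the mean of the tumor's group, coloured by study. The points follow a line for BAG3 (r = 0.757) and form a cloud for HSPA8 (r = 0.046).

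HSPA8 had no correlation past the threshold with DNAJB1, BAG3 or HSPB1. Its r was 0.046 with DNAJB1 (rho 0.002, permutation p = 0.692, adjusted p = 0.842), 0.085 with BAG3 and -0.119 with HSPB1. Within studies its r with DNAJB1 was 0.179 at 1 h, -0.179 at 3-6 h and 0.442 at 24 h. With HSP90AB1, HSPH1 and FKBP4 the r of HSPA8 was 0.480, 0.471 and 0.436. Its r with HSP90AA1, 0.302 over all tumors, was 0.002 at 3-6 h. HSP90AB1 with HSPB1 (0.166, adjusted p = 0.283) was the other pair of the 28 that did not pass.

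Immediate early genes, which respond within minutes to handling as well as to signals, were set beside the chaperones. The median r with 7 of them (FOS, FOSB, JUN, JUNB, EGR1, ATF3 and IER2) was 0.414 for DNAJB1, 0.362 for HSP90AA1, 0.358 for HSPH1 and 0.312 for BAG3. It was 0.292 for HSP90AB1, 0.184 for HSPA8, 0.174 for FKBP4 and 0.045 for HSPB1. With IER2 alone r ran from -0.360 for HSPB1 to 0.292 for HSP90AB1. The same r over all genes was not computed, and the part of the immediate early genes in the chaperone correlations was not tested. Leaving out the chaperones themselves, among 6891 other genes with a mean FPKM of at least 10, those most like FKBP4 were SERPINH1 (0.557), STIP1 (0.498), AAGAB (0.480), TAF7 (0.475) and YARS1 (0.468), as Pearson r over the 91 libraries. SERPINH1 encodes the collagen chaperone HSP47 and STIP1 the HOP adaptor between HSP70 and HSP90. Of the same 6891 genes, those most like DNAJB1 were PPP1R15A (0.696), GPRC5A (0.676), HILPDA (0.662), ZFP36 (0.635) and IRF1 (0.623), of which PPP1R15A and ZFP36 are early stress-response genes. These are descriptions, given without a test.

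Around the 10 genes, wider chaperone lists were read at 24 h and 200 mg/kg, where 7.41% of all genes were called. Most lists had no call or a share near that one, and the chaperonins had the most calls. These cylinders fold actin and tubulin in the cytosol (CCT) or imported proteins in mitochondria (HSPD1 and HSPE1). Of 10 tested, 3 were lower and 0 higher beside that share, and all 10 differences were negative, with a median of -0.24 beside 0.04 over all genes. CCT2 was at 185, 190, 206 and 200.1 FPKM with vehicle. With K-975 CCT2 was at 129, 167, 153, 178 and 139, with no overlap and a log2 difference of -0.35 (adjusted p = 0.00270, limma). CCT5 (-0.45, adjusted p = 0.0126) and CCT8 (-0.30, adjusted p = 0.0355, both limma) were the other subunits called.

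HSP90 co-chaperones had 1 lower and 0 higher of 15 tested, with a median of -0.04, a share near the 7.41% of all genes. The gene was NUDC, at 57.5 ± 8.21 FPKM (SD, n = 5) beside 73.4 ± 6.86 with vehicle (SD, n = 4) and a log2 difference of -0.35 (adjusted p = 0.0128, limma). STIP1 was just outside (-0.27, adjusted p = 0.0504, limma). The lists of organelle chaperones and of the FKBP family were also near that share. Of 10 organelle chaperones, 1 was lower and 0 higher: TRAP1, the HSP90 of mitochondria (-0.29, adjusted p = 0.0146, limma). Of 10 genes of the FKBP family, 1 was higher and 0 lower: FKBP9 of the endoplasmic reticulum (0.26, adjusted p = 0.0495, limma).

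No gene passed among 12 HSP70 relatives and exchange factors (median 0.08), 10 J-domain proteins (0.11), 4 small heat shock proteins (0.44), 4 heat shock factors (0.06), 2 steroid receptors (-0.04) or 7 immediate early genes (-0.38). HSF1 was at 71.0, 83.5, 72.8 and 72.6 FPKM with vehicle. With K-975 HSF1 was at 62.4, 66.2, 74.1, 70.0 and 64.8 (log2 difference -0.15, adjusted p = 0.191, limma). FKBP5 differed by 0.05 (adjusted p = 0.919, limma).

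The mesothelial markers gave differences of both signs in the same comparison. Of 9, 3 passed and were higher, beside 7.41% of all genes: MSLN (0.40), CALB2 (0.39) and KRT19 (0.32). KRT5 was at 1041 FPKM beside 726 with vehicle and did not pass (0.51, adjusted p = 0.157, limma). WT1, KRT8, PDPN, KRT18 and UPK3B were slightly lower (-0.10, -0.10, -0.07, -0.04 and -0.03) and did not pass. The summed level of the 9 was 2869 to 3046 FPKM with vehicle and 3215 to 4109 after 200 mg/kg, without overlap, and lay at 2403 to 3764 in untreated tumors. None of 5 tested immune, 3 endothelial, 5 fibroblast or 1 erythroid markers passed. The immune sum was 148 to 227 FPKM with vehicle and 130.4 to 209.9 after 200 mg/kg, the fibroblast sum 841 to 1037 and 752 to 1394, and the endothelial sum 31.0 to 67.9 and 27.1 to 92.5. The part of the marker levels in the chaperone differences was not tested.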

How the data were processed

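Total RNA of tumors kept in RNAlater was purified with miRNeasy, and libraries were made with KAPA HyperPrep, enriched by hybridization to probes and sequenced on a NextSeq instrument. The authors deposited FPKM values per gene; per the labels, STAR and GRCh38 were used, and the annotation, the quantifier and the handling of mouse reads are not given in the sources used here. Of 20555 entries, 20239 gene identifiers were kept, 316 entries of repeated identifiers were left out and 32 blank cells were read as 0. FPKM carry no counts, so the depth was not measured. It was inferred, as a ratio between libraries, from the values of 1488 rarely detected genes (0.459 to 1.81 of the median among the 91 used).

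Values were tested as log2(FPKM + 1) in limma 3.58.1 (R 4.3.3; trended, robust variance; 1 coefficient per group; 91 libraries in a single fit) on the 13036 genes that reached an FPKM of 1 in 4 or more libraries, with Benjamini-Hochberg adjustment per comparison and a threshold of 0.05. These differences understate the change of low genes. P-values measure the spread between tumors of a group. The members and gene lists were chosen with earlier results of these data known. Named genes are the 10 members, listed genes past the threshold, HSF1, FKBP5, and the 5 genes outside the members most correlated with FKBP4 and with DNAJB1; STIP1 at 24 h was named after its value was seen. Alternatives were the full set of 94 libraries, a pseudocount of 0.1, no filter, quantile normalization, only the groups compared, another control, single cage groups and leaving out each tumor.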

Additional observations from a re-analysis of the deposited data

Results flagged for a closer look

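In 6 of 152 groups of a gene, a tumor stood far from the others of its group by Dixon's test, and chance gives about 1 in 20. FKBP4 in vehicle cage group 3 was at 44.8 FPKM in replicate 2, the others at 53.6 to 55.5. HSP90AA1 was at 112 in replicate 3 of 30 mg/kg at 1 h (others 91.4 to 95.9) and at 84.7 in replicate 2 of cage group 5 of 200 mg/kg (others 96.9 to 102). HSPB1 was at 544 in replicate 1 of untreated 1 h tumors (others 406 to 441) and at 358 in replicate 5 of vehicle cage group 2 (others 422 to 446). BAG3 was at 49.5 in replicate 4 of 100 mg/kg at 1 h (others 31.9 to 36.3).

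HSPA8 differed between cage groups 7 and 6 of 100 mg/kg by -0.47 in log2(FPKM + 1), the difference given above. The effect of 100 mg/kg on FKBP4 was 0.13 at 1 h and -0.13 at 24 h, a gap of -0.27 with all tumors of each time on opposite sides of the vehicle mean. This gap was not tested. Against untreated tumors the differences were 0.08 at 1 h and -0.20 at 24 h.

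The libraries with few detected genes held chaperone values both above and below the control tumors of their study. HSPA8 was at 369 FPKM in replicate 1 of 200 mg/kg at 1 h (controls 211 to 272), while FKBP4 (40.2), HSP90AA1 (62.6), HSP90AB1 (256) and DNAJB1 (26.8) were below their controls there. In replicate 5 of 100 mg/kg at 24 h, HSPA8 was at 316 (controls 194 to 260.5), HSPH1 at 33.6 (17.9 to 27.4) and DNAJB1 at 70.2 (29.7 to 55.9), while FKBP4 (19.2), HSP90AA1 (70.7), HSP90AB1 (236) and BAG3 (33.1) were below theirs. In replicate 1 of 30 mg/kg at 24 h, FKBP4 was at 229.95 (39.9 to 54.2) and HSP90AB1 at 526.3 (287 to 345), and the other 8 genes were listed at 0.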

How the results depend on the processing

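FPKM without counts and 4 or 5 tumors a group limit what can be seen: the smallest difference called was -0.19. Of 348 counts of called genes under alternatives, 314 stayed within 1.5 times the value given above, and 14 of 20 comparisons kept their count throughout. At 24 h and 200 mg/kg the count of 1 became 0 with all 94 libraries, with quantile normalization (HSP90AB1 -0.15, adjusted p = 0.0574, limma) or with only the compared groups in the fit, 3 with untreated controls, and 0 to 2 without a tumor. At 24 h and 30 mg/kg the count of 0 became 5 with all 94 libraries, where HSPA8 turned from 0.10 to -1.48 (adjusted p = 0.0468, limma) because the library with 702 detected genes lists 8 of the 10 genes at 0. For cage group 7 against 6, the count of 1 became 0 with all 94 libraries or only these groups, and 0 to 1 without a tumor. For untreated tumors of 24 h against 3-6 h it became 0 with all 94 libraries or without the filter (HSPA8 adjusted p = 0.0525, limma), and 0 to 1 without a tumor. With cage group 7 alone, chosen after seeing the data, the count at 100 mg/kg went from 0 to 1 against vehicle and from 0 to 1 against untreated tumors. Correlated pairs fell from 24 to 12 with all 94 libraries, where r of FKBP4 with HSPH1 became -0.637. Of 3280 values of single genes, 28 lost and 9 gained the threshold with the same sign, 1 (HSPA8 at 30 mg/kg, above) passed only with the other sign, and 191 changed sign without passing. No paired analysis was possible because the labels carry no replicate numbers that join tumors of different groups.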
